A study of Mus musculus with 107 samples.

Results

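The anaphase promoting complex, also called the cyclosome, is the ubiquitin ligase whose activity ends metaphase. The genes described here were chosen by name from the count table: 6 subunits (Anapc1, Anapc2, Anapc4, Cdc16, Cdc23 and Cdc27), the activators Cdc20 and Fzr1, and the E2 enzymes Ube2c and Ube2s. All 10 were found among 21564 genes, and all 10 passed the filter on low counts.

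The study sequenced single mouse eggs by Smart-seq2, a method that copies whole polyadenylated transcripts of 1 cell and keeps no record of their strand. The groups were mos -/- eggs with the names M1 (22 eggs), M2 (18 eggs) and M3 (21 eggs), wildtype eggs activated with strontium chloride (17 eggs) and wildtype eggs without activation (29 eggs). All came from C57BL/6J females aged 2 to 3 months that had received 5 IU of pregnant mare serum gonadotropin 48 h before. Oocytes were taken at the germinal vesicle stage, held with 2.5 µM milrinone, matured in culture and collected 38 to 40 h after germinal vesicle breakdown. Activated eggs had matured for 15 to 16 h after breakdown when they were placed for 2 h in calcium-free medium that held 10 mM strontium. The labels define neither M1, M2 and M3 nor the nature of the mos mutation, and tie no egg to an animal. Batch 1 held 9 mutant and 5 wildtype eggs, and batch 2 held 52 mutant, 17 activated and 24 wildtype eggs. In batch 2 the mutant eggs filled 2 plates, and activated and wildtype eggs had a plate each, so that plate and group cannot be told apart there; batch 1 held mutant and wildtype eggs under 1 plate label.

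Mature eggs of vertebrates wait at metaphase of the second meiotic division. There the kinase Mos, through MAP kinases, helps the inhibitor Emi2 (the product of Fbxo43) to hold the complex inactive. Calcium, released at fertilisation or by strontium, leads to the destruction of Emi2. The complex with Cdc20 then marks cyclin B and securin for destruction, sister chromatids part and the egg leaves metaphase. Fzr1, also known as Cdh1, is the activator used outside metaphase, and in mouse oocytes it takes part in the earlier arrest at prophase. Ube2c places the first ubiquitins on a substrate and Ube2s lengthens the chain.

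Egg totals ran from 44 to 9132471 counts, and 3 mutant eggs held under 10000. Medians in batch 2 were 605366 counts in mutant, 796582 in activated and 207420 in wildtype eggs, and in batch 1 they were 7031161 in mutant and 8144112 in wildtype eggs. Among the 24 wildtype eggs of batch 2, 9 had over 35% of their counts in 50 genes. All 10 oocyte markers on the list used here were detected in every group and batch, with a summed level of 4013 to 13608 raw CPM. Of 14 granulosa and cumulus cell markers, 3 to 8 were at 0 in each group and batch, and Fshr, Foxl2 and Tnfaip6 were too low to test. Their summed level was 109.4 raw CPM in activated eggs, between 220 and 315 in the mutant sums, and 281 and 301 in the wildtype sums, most of it from Serpine2. The part of these differences in the results below was not tested.

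Mos itself was lower in the sums of mutant than of wildtype eggs, with a log2 fold of -2.10 ± 0.40 (SE, edgeR adjusted p = 0.0029). It was also lower in activated than in wildtype eggs (-2.71 ± 0.75, edgeR adjusted p = 0.0224), and the difference of mutant from activated eggs did not pass (0.60 ± 0.63, edgeR adjusted p = 0.7). In single eggs of batch 2, 36 of 49 mutant eggs and 10 of 24 wildtype eggs had a read of Mos (medians 3.69 and 0 raw CPM), or 15 of 49 and 10 of 24 with eggs thinned to equal counts, and 1 wildtype egg held 36.05% of the wildtype counts. In batch 1 the highest M1 egg, at 17.9 raw CPM, exceeded the highest wildtype egg, at 11.2. Single eggs were thus not separated by their level of Mos, and since the labels do not say what the mutation removes, this level does not check them.

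Eggs of 1 group and batch were added together, which gave 9 sums, and differences were tested with edgeR between sums. Levels of sums are given as CPM after TMM scaling, and levels of single eggs as raw CPM, the count scaled to the egg's total. Counts depend on the poly(A) tail, so a lower level can be fewer transcripts or tails too short to be copied, and these cannot be told apart.

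Tail length bears on which stored transcripts an egg translates and on which Smart-seq2 copies, so up to the last 100 bases of each 3′ UTR were searched for the cytoplasmic polyadenylation element, the letters TTTTAT or TTTTAAT, and the last 40 bases for the cleavage signal AATAAA or ATTAAA. Both were searched on the transcript strand only, in the longest principal transcript of GENCODE M21 (GRCm38). The runs shown are from Cdc20, the only gene with such an element, and from Ube2c and Anapc2, which were called in mutant against wildtype eggs, each ending with the cleavage signal; capitals mark the cleavage signal and, in Cdc20, a pair of TTTTAT elements that share a T.
Cdc20: tcttgtTTTTATTTTATtttttctAATAAA
Ube2c: ttgaacccttaacaatgtatattaAATAAA
Anapc2: tggccccatcctgcttttgtggccATTAAA
In Cdc20 the elements began 40 and 35 bases from the end. Among 12916 tested genes with such a transcript, 19.02% held either element and 77.04% held a cleavage signal. Fzr1 and Cdc23 had no AATAAA or ATTAAA in the window, which says only that these letters were not there.

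Per length of the transcript, Cdc20 had the highest level of the 10 genes in all 9 sums, from 149 to 261 TMM CPM per kb. Fzr1 ranked second in each of the 6 mutant sums (63.0 to 127.01 CPM per kb) and in activated eggs, where it exceeded the next gene, Cdc16 (40.5 CPM per kb), more than 2 times. In wildtype eggs Anapc2 ranked second (74.3 CPM per kb in batch 1 and 77.1 in batch 2), and Fzr1 ranked 7 in batch 1 and 3 in batch 2. In the M3 sum of batch 1, Fzr1 and Cdc27 were level at 75.3 CPM per kb. Ube2c had the lowest level of the 10 in wildtype eggs of batch 1, at 3.24 CPM per kb. The plot of levels by sum gives each gene its own axis.

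**Figure D1:**
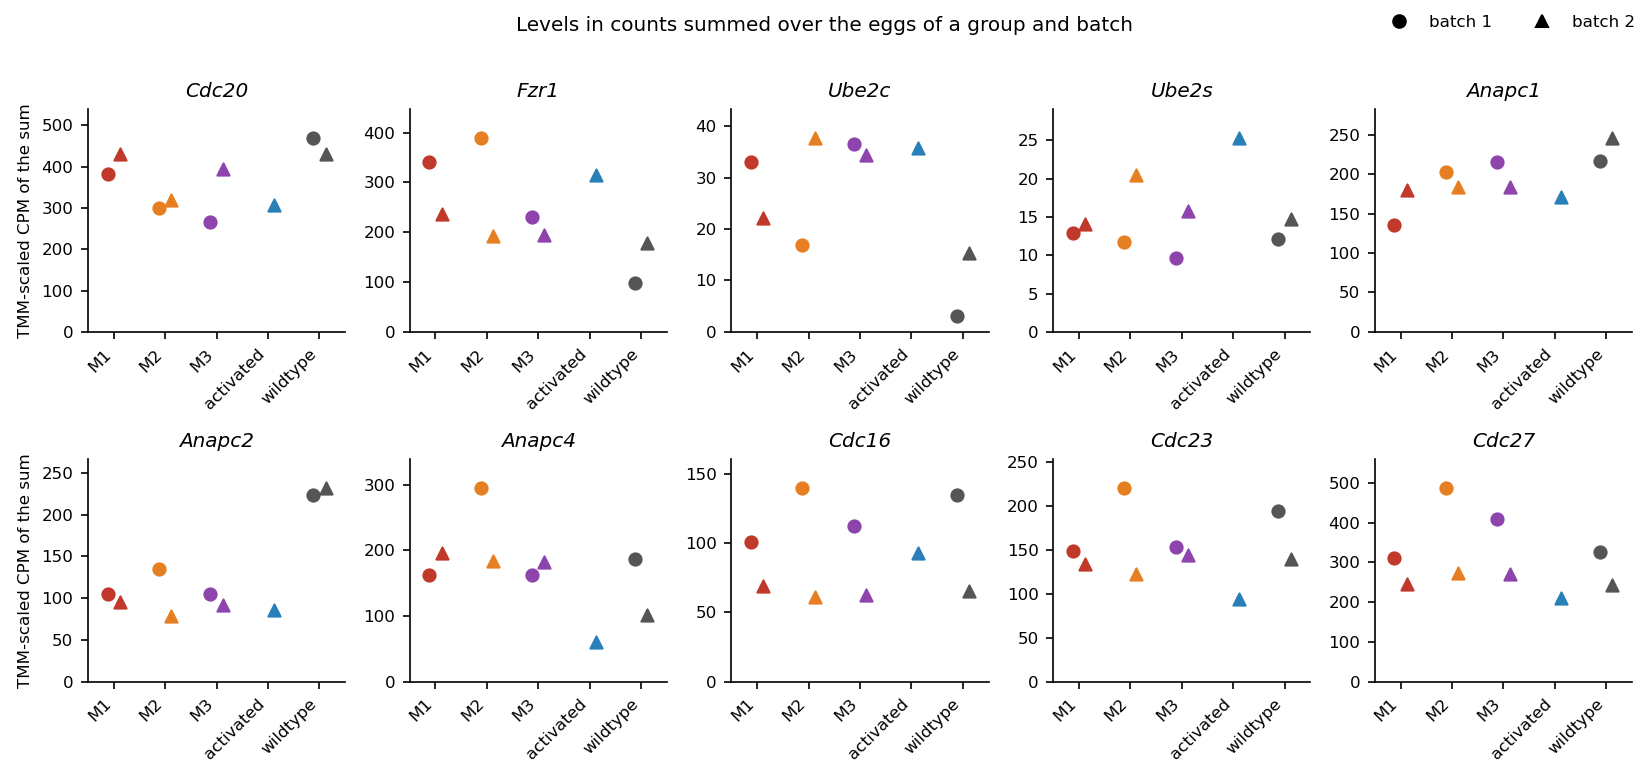
Level of each gene (TMM-scaled CPM, linear axis from 0) in the counts summed over eggs of M1, M2, M3, activated and wildtype, with circles for batch 1 and triangles for batch 2; a point is 1 sum, so there are no error bars. Anapc2 lies at 78.9 to 134.7 CPM in mutant and at 85.7 in activated eggs, under both wildtype sums (223 and 232), and Ube2c lies above both wildtype sums (3.13 and 15.4) in every mutant sum and in activated eggs.

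Mutant eggs were first set against wildtype eggs, to ask how the transcripts of the complex differed with the mos mutation. Of the 10 genes, 1 was higher in mutant eggs (Ube2c) and 1 was lower (Anapc2), a share of 20% where 9.38% of all 13832 genes were called. By direction, 5.36% of all genes were called higher and 4.03% lower. The other 8, both activators among them, missed the threshold of 0.05 on the adjusted p. The median log2 fold of the 10 genes was -0.04 and that of all genes 0.06. Of the 10 oocyte markers, 2 were higher and 5 lower in mutant eggs, with a median fold of -0.42, and their part in these calls was not tested.

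Of the activators, Cdc20 (chr4:118432901-118437352, minus strand, GRCm38) had sums of 383 and 431 CPM in M1, 300.4 and 318 in M2, 267 and 395 in M3, and 469 and 431 in wildtype eggs, in the order of batches. The ranges of mutant and wildtype sums met, since the M1 sum of batch 2 was as high as the wildtype sum of its batch. A log2 fold of -0.39 ± 0.18 resulted (edgeR adjusted p = 0.211).

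Fzr1 (chr10:81366222-81378516, minus strand) stood at 342 and 237 CPM in M1, 388 and 193 in M2, 230.2 and 194 in M3, and 97.1 and 179 in wildtype eggs, again by batch. Each mutant sum was above both wildtype sums, by a wide margin in batch 1 and a narrow one in batch 2. Its log2 fold of 0.87 ± 0.30 did not pass (edgeR adjusted p = 0.0979), although DESeq2 (0.81, adjusted p = 0.0294) and limma voom (1.16, adjusted p = 0.00617) called it, as did edgeR with no filter, with thinned eggs, with M1, M2 and M3 pooled and without the M2 or the wildtype sum of batch 2. It was not called with RLE or upper quartile scaling (edgeR adjusted p = 0.1125 and 0.1164), with sums per plate (0.197) or with no batch term (0.3441). Nor was it called without the wildtype eggs of batch 2 whose counts were concentrated in few genes (log2 fold 0.735, edgeR adjusted p = 0.2446). Without the wildtype sum of batch 1 the log2 fold fell to 0.2166. Within batch 1 the log2 ratio of the sums was 1.69, and within batch 2 it was 0.21.

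In single eggs of batch 1, M1 eggs held 137, 379, 379 and 546 raw CPM of Fzr1, M2 eggs 233 and 527, M3 eggs 146, 233 and 303, and wildtype eggs 68.03, 78.9, 85.6, 85.7 and 109.6. The mutant and wildtype eggs of batch 1 did not overlap. In batch 2 the lowest, median and highest eggs were at 0, 172 and 1568 raw CPM among 49 mutant eggs, and at 11.6, 54.7 and 972 among 24 wildtype eggs. Of these mutant eggs 46 lay above the wildtype median, while the wildtype sum rested largely on its highest egg.

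The library labelled wildtype egg 45 of batch 2 held 436 of the 837 Fzr1 counts of its sum (52.1%) and 47 of the 72 Ube2c counts (65.3%). It was also the highest wildtype egg of the batch for Anapc4 (325 raw CPM) and the lowest for Anapc1 (69.1). With 448563 counts and 19.4% of them in 50 genes it was not a shallow library. When it was left out, a choice made for its Fzr1 counts that must by itself raise the fold, Fzr1 was higher in mutant eggs by 1.37 ± 0.23 (edgeR adjusted p = 0.000559). Whether its label is right was not tested.

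Ube2c (chr2:164769898-164778822, plus strand) had the largest difference of the 10 genes. Its sums were 33.1 and 22.1 CPM in M1, 16.9 and 37.6 in M2, 36.5 and 34.3 in M3, and 3.13 and 15.4 in wildtype eggs. Every mutant sum exceeded both wildtype sums. This made a log2 fold of 1.98 ± 0.53 (3.94-fold, edgeR adjusted p = 0.0389). Within batch 1 the log2 ratio was 3.12 and within batch 2 it was 0.99.

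In batch 1, M1 eggs held 11.3, 33.02, 36.6 and 55.7 raw CPM of Ube2c, M2 eggs 12.8 and 19.9, and M3 eggs 31.01, 34.5 and 40.8. Wildtype eggs held 0.383, 1.18, 2.21, 3.29 and 5.36. The groups did not overlap, as for Fzr1. Across all tested genes 2.41% had every mutant egg of batch 1 above every wildtype egg, and 2 of the 10 genes did, Fzr1 and Ube2c.

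Among batch 2 eggs, 44 of 49 mutant eggs had at least 1 Ube2c read (89.8%), against 6 of 24 wildtype eggs (25%); eggs of a group share plates and may share animals, so no interval is given. Medians were 35.4 and 0 raw CPM. Because wildtype eggs of that batch held fewer counts, eggs were also thinned to 61689 counts, where 38 of 49 mutant and 5 of 24 wildtype eggs had a read. The 18 wildtype eggs without a read held 71917 to 418230 counts, and a count of 0 in 1 such egg allows a level of up to 41.7 CPM in the shallowest and 7.17 CPM in the deepest, for counting error only.

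The call on Ube2c rested on few libraries. It was lost without the wildtype sum of batch 1 (log2 fold 1.03, edgeR adjusted p = 0.211), without the M2 sum of batch 2 (1.72, edgeR adjusted p = 0.0756) and without the 9 wildtype eggs with counts concentrated in 50 genes (1.80, edgeR adjusted p = 0.0809). The call was also lost with sums per plate (1.85, edgeR adjusted p = 0.0561) and with no batch term (1.75, edgeR adjusted p = 0.265). Without wildtype egg 45 the log2 fold was 2.80 ± 0.41 (edgeR adjusted p = 0.000198). That egg was chosen after its values were seen, and leaving out the highest wildtype egg of batch 2 for Ube2c must by itself raise the fold. The annotated span of Ube2c shares 1662 bases with that of Tnnc2 on the opposite strand, and reads of these genes cannot be told apart there.

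Ube2s (chr7:4794546-4812590, minus strand), which lengthens ubiquitin chains, had sums of 9.67 to 20.5 CPM in mutant and 12.1 and 14.8 in wildtype eggs. The ranges overlapped and the log2 fold was 0.04 ± 0.32 (edgeR adjusted p = 1.0). It was low in all groups, and its annotated span shares 521 bases with that of Rpl28 on the other strand.

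**Figure D2:**
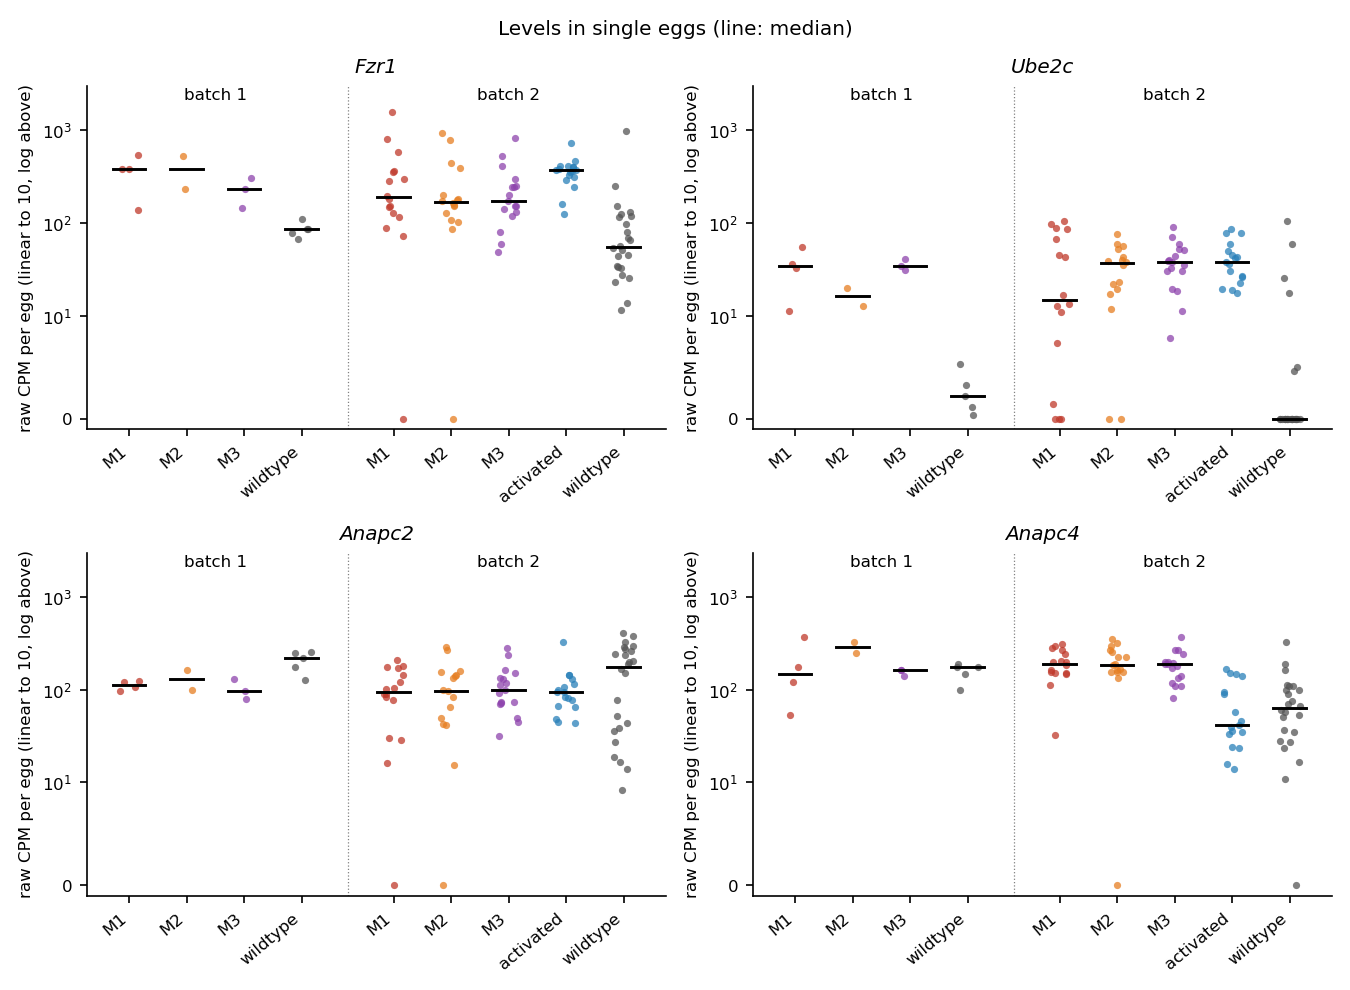
Raw CPM in single eggs of at least 10000 counts (axis linear to 10, logarithmic above), by group and batch, for Fzr1, Ube2c, Anapc2 and Anapc4; a point is 1 egg and a line the median. In batch 1 mutant and wildtype eggs are apart for Fzr1 and Ube2c; in batch 2, 18 wildtype eggs are at 0 for Ube2c, and 1 wildtype egg stands at 972 for Fzr1 and 105 for Ube2c.

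Anapc2 (chr2:25272478-25285915, plus strand), the cullin subunit that with the RING protein Anapc11 forms the catalytic core, was lower in mutant eggs. Its sums were 105 and 94.8 CPM in M1, 134.7 and 78.9 in M2, 105 and 91.7 in M3, and 223 and 232 in wildtype eggs. All 6 mutant sums were below both wildtype sums. The log2 fold was -1.18 ± 0.19 (edgeR adjusted p = 0.0009), but with no batch term it was -1.16 and not called (edgeR adjusted p = 0.108). The log2 ratios were -0.97 within batch 1 and -1.39 within batch 2. Leaving out any 1 sum left the fold between -1.39 and -0.96, with edgeR adjusted p from 8.46e-05 to 0.0261.

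Eggs overlapped more than sums. In batch 1, M1 eggs held 96.9, 106, 120.3 and 124.5 raw CPM of Anapc2, M2 eggs 99.6 and 163, M3 eggs 78.9, 95.9 and 129.6, and wildtype eggs 127.3, 173, 221, 250.3 and 254. In batch 2 the lowest, median and highest were 0, 98.6 and 285 among mutant eggs, and 9.29, 177 and 408 among wildtype eggs. Of 49 mutant eggs 43 lay below the wildtype median, and 10 of 24 wildtype eggs lay below the mutant median.

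Wildtype eggs of batch 2 fell into a low and a high range for Anapc2. The 9 eggs with concentrated counts held 9.29 to 77.3 raw CPM (median 27.5), and the other 15 held 35.6 to 408 (median 239.8). Without the 9 eggs Anapc2 was still lower in mutant eggs, at a log2 fold of -1.30 (edgeR adjusted p = 0.00114). Taken as a mean over eggs of log2 raw CPM, which weights shallow and deep eggs alike and leaves out TMM scaling, the difference was -0.64.

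The platform subunit Anapc1 and the subunits Cdc16, Cdc23 and Cdc27, which form the arm that binds activators, did not pass, with log2 folds of -0.34 ± 0.19, -0.12 ± 0.21, -0.12 ± 0.20 and 0.19 ± 0.18 (edgeR adjusted p = 0.31, 0.836, 0.818 and 0.612). Anapc1 had 136 to 215 CPM in mutant sums and 217 and 245 in wildtype sums, so that its ranges did not overlap but nearly met. With eggs thinned to equal counts it was called (-0.65, edgeR adjusted p = 0.0351). The ranges of the other 3 overlapped. Cdc27 had 244 to 486 CPM in mutant sums and 327 and 243 in wildtype sums. Cdc16 differed more between batches than between these groups, with 61.2 to 139.7 CPM of Cdc16 in mutant sums against 134.7 and 65.4 in wildtype sums. The annotated span of Cdc23 shares 2327 bases with that of Kif20a on the other strand.

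Anapc4 (chr5:52834012-52867797, plus strand), another platform subunit, had a log2 fold of 0.46 ± 0.24 (edgeR adjusted p = 0.263). In batch 1 its mutant sums were 162 (M1), 294 (M2) and 162 (M3) CPM and the wildtype sum 187. In batch 2 they were 195, 184 and 182 CPM, against 101.6 in wildtype eggs.

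The comparison of activated with wildtype eggs asks how an exit from arrest triggered without sperm compares with an egg of the same age that was not activated. Anapc2 was lower in activated eggs, the only call among the 10 genes (10%), where 13% of all genes were called, 5.66% higher and 7.33% lower. With upper quartile scaling 993 genes were called higher and 841 lower, where TMM gave 783 and 1014. Of the 10 oocyte markers 5 were lower and 0 higher in activated eggs, with a median fold of -1.23, the direction of Anapc2, and their part in its call was not tested. Activated eggs formed a single sum on a plate of their own, and this comparison shares its wildtype sums with the one above.

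Anapc2 stood at 85.7 CPM in the activated sum, against 223 and 232 in the wildtype sums. The log2 fold was -1.28 ± 0.33 (edgeR adjusted p = 0.0157). Single activated eggs held 43.5, 93.97 and 325 raw CPM (lowest, median and highest of 17), and 16 of them lay below the wildtype median of 177. In the other direction 10 of 24 wildtype eggs lay below the activated median, and 7 below the lowest activated egg. As a mean over eggs of log2 raw CPM in batch 2 alone, with no TMM scaling, the difference was -0.22, while the raw level of the sums was 92.9 CPM in activated and 199 in wildtype eggs of that batch. The fitted fold was -1.26 with sums per plate and -1.41 with no batch term, and Anapc2 was called with neither. Without the wildtype sum of batch 2 the fitted fold was -1.03 and no longer passed (edgeR adjusted p = 0.0912).

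Fzr1 had 315 CPM in the activated sum, against 97.1 and 179 in wildtype sums. Single activated eggs ran from 126 to 726 raw CPM with a median of 372, and 20 of 24 wildtype eggs lay below the lowest of them. The log2 fold of 1.28 ± 0.42 missed the threshold (edgeR adjusted p = 0.0632), and without wildtype egg 45 it was 1.89 ± 0.31 (edgeR adjusted p = 0.000474).

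Ube2c had 35.8 CPM in the activated sum, against 3.13 and 15.4 in wildtype sums. All 17 activated eggs had a read, from 17.6 to 86.9 raw CPM with a median of 38.4, and 20 of 24 wildtype eggs lay below the lowest of them. The log2 fold was 1.90 ± 0.67 (edgeR adjusted p = 0.0926). Without wildtype egg 45 it was 2.89 ± 0.52 (edgeR adjusted p = 0.00094). That egg was chosen after its values were seen, and other choices that kept it also changed the call. With all eggs, DESeq2 (adjusted p = 0.0309 for Fzr1, 0.0412 for Ube2c) and limma voom (0.00888 and 0.00655) called both. So did edgeR with no filter (adjusted p = 0.000487 and 0.000608), with M1, M2 and M3 pooled (0.00414 and 0.00505), with thinned eggs (0.00037 and 0.0109) and without the M3 sum of batch 2 (0.0224 and 0.0347). Neither was called with sums per plate (edgeR adjusted p = 0.144 and 0.107) or without the 9 concentrated wildtype eggs (0.162 and 0.173).

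Anapc4 was at 59.7 CPM in the activated sum, against 187 and 101.6 in wildtype sums, a log2 fold of -1.10 ± 0.38 (edgeR adjusted p = 0.0641, DESeq2 0.0233, limma voom 0.0467). Cdc20 had 308 CPM in the activated sum, and 469 and 431 in wildtype sums, with a log2 fold of -0.64 ± 0.30 (edgeR adjusted p = 0.18). Single activated eggs fell into a low and a high range for Cdc20. Of the 17 eggs, 6 lay below the lowest wildtype egg of batch 2 (139.3 raw CPM), and the rest held at least 308.7. In the other direction, 10 of the 17 lay above the wildtype median of 313.3, and the activated median was 357.5. Cdc16, Cdc23, Cdc27, Anapc1 and Ube2s had log2 folds between -0.62 and 0.67, and none passed. Cdc16 showed a contrast of scales. Single activated eggs of batch 2 held 45.1 to 226 raw CPM (median 108.9). All 24 of 24 wildtype eggs lay below that median, with a median of 47.1. As a mean over eggs of log2 raw CPM, with no TMM scaling, the difference was 1.31. Between the TMM-scaled sums of batch 2 alone the log2 ratio was 0.51. The fitted fold, which also uses wildtype eggs of batch 1 (134.7 CPM), was close to that ratio, at 0.44 ± 0.32 (edgeR adjusted p = 0.438). The cause of the contrast was not tested.

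**Figure D3:**
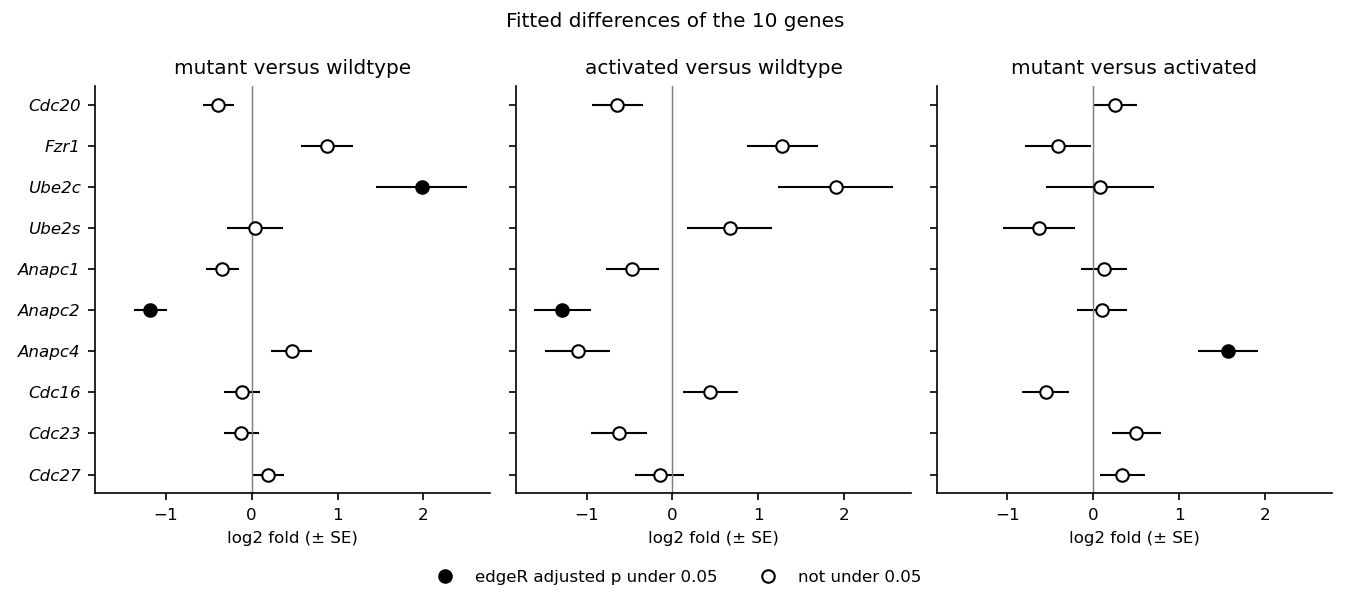
Log2 fold of each gene (horizontal axis) with its standard error in mutant over wildtype, activated over wildtype and mutant over activated eggs; filled points have an edgeR adjusted p under 0.05. Anapc2 is filled and negative in both comparisons with wildtype, Ube2c is filled in mutant over wildtype, and Anapc4 is filled, at 1.57 ± 0.35, in mutant over activated.

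Mutant and activated eggs were then set against each other, which tests whether they differ and does not rest on the difference of 2 separate calls. Anapc4 was higher in mutant eggs, the only call among the 10 genes, where 4.84% of all genes were called, 3.43% higher and 1.42% lower (474 and 196 genes, but 344 and 324 with upper quartile scaling). Its mutant sums were 162 and 195 CPM in M1, 294 and 184 in M2, and 162 and 182 in M3, all above the activated sum of 59.7. The log2 fold was 1.57 ± 0.35 (edgeR adjusted p = 0.0151), and within batch 2 the log2 ratio was 1.65. Of the 10 oocyte markers 5 were also higher and 0 lower in mutant than in activated eggs, with a median fold of 1.22, and their part in this call was not tested.

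In single eggs of batch 2, mutant eggs held 0, 188 and 367 raw CPM of Anapc4 (lowest, median and highest of 49), and activated eggs 13.9, 41.5 and 166 (of 17). The groups overlapped at their edges, with all 17 activated eggs below the mutant median and 30 mutant eggs above the highest activated egg. Wildtype eggs, at 0, 63.3 and 325 raw CPM, had a median between these. Without the M1 sum of batch 2 the fold was 1.33 and the call was lost (edgeR adjusted p = 0.0568), and without wildtype egg 45 it was 1.53 ± 0.38 (edgeR adjusted p = 0.0283).

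Anapc2 differed by 0.10 ± 0.29, Fzr1 by -0.41 ± 0.39 and Ube2c by 0.08 ± 0.63 between mutant and activated eggs (edgeR adjusted p = 0.912, 0.666 and 0.981). The standard error of Ube2c leaves room for differences of more than 1 log2 unit in either direction, so alike levels are not shown. Cdc16 had the largest negative fold after Ube2s, at -0.55 ± 0.28 (edgeR adjusted p = 0.308), and Ube2s was at -0.63 ± 0.42 (edgeR adjusted p = 0.494).

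Among the mutant groups, 0 of the 10 genes differed in M2 against M1 or in M3 against M1 with edgeR, 0 at an unadjusted p under 0.05, and 0 with DESeq2 or limma voom. Among all genes 0.0% were called in M2 (741 at an unadjusted p under 0.05, 0 with DESeq2 and 0 with limma voom) and 0.152% in M3. The largest fold of the 10 genes was 0.41 ± 0.22 in M2, for Cdc27, and -0.44 ± 0.34 in M3, for Fzr1. M1 eggs of batch 2 had a Ube2c median of 14.9 raw CPM with 13 of 16 eggs detected, lower than the 36.8 (14 of 16) of M2 and 38.0 (17 of 17) of M3, but in batch 1 the M2 sum was the lowest of the 3.

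Whether the mutant difference changed with batch was tested with an added term. None of the 10 genes passed with edgeR (0.318% of all genes did), while 2 had an unadjusted p under 0.05, and DESeq2 called 1 and limma voom 0. These 2 were Fzr1, whose log2 fold was lower in batch 2 by -1.48 ± 0.36 (edgeR adjusted p = 0.0882), and Ube2c (-2.14 ± 0.64, edgeR adjusted p = 0.195). Without wildtype egg 45 the differences were -0.63 (edgeR adjusted p = 0.58) and -0.83 (edgeR adjusted p = 0.759). That egg was chosen after its values were seen, and leaving it out must by itself raise both folds in batch 2. With all eggs thinned to equal counts the differences were -0.31 and 0.01.

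How the genes varied together from egg to egg was described with rank correlations of raw CPM in batch 2, with no test, since eggs share plates and may share animals. The 45 pairs spanned Spearman rank correlations of -0.58 to 0.62 in mutant, -0.55 to 0.82 in activated and -0.55 to 0.75 in wildtype eggs. Their medians were 0.08, 0.08 and -0.02. By Pearson correlation of log2 CPM, 38 of 45 pairs were above 0 in mutant eggs, with a median r of 0.37, but without M2 egg 14, which had 8 of the 10 genes at 0, 29 pairs were, with a median of 0.13. The median Pearson r was 0.06 in activated and -0.01 in wildtype eggs. Anapc2 and Fzr1 were the pair with the highest rank correlation in mutant eggs (0.62 over 49 eggs, Pearson r of log2 CPM 0.50) and in wildtype eggs (0.75 over 24 eggs, r 0.66). In activated eggs it was 0.43 over 17 eggs. Within mutant and wildtype eggs, those higher in one of these genes tended to be higher in the other, while their fitted folds against wildtype eggs had opposite signs.

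The make-up of the libraries moved with both genes in wildtype eggs. The share of counts in 50 genes had a rank correlation of 0.07 with Anapc2 and 0.19 with Fzr1 in mutant eggs, and of -0.72 and -0.69 in wildtype eggs. Total counts of the egg had a rank correlation of -0.38 with each of these genes in mutant eggs, and of 0.48 with Anapc2 and 0.28 with Fzr1 in wildtype eggs. The part of the share or of total counts in the correlations of Anapc2 with Fzr1 was not tested. In activated eggs the highest pair was Anapc4 with Cdc20 (0.82), followed by Cdc23 with Cdc20 (0.77) and Anapc4 with Cdc23 (0.77), and Cdc23 had a rank correlation of -0.74 with the share in 50 genes there. The part of the low and high range of Cdc20 in the correlations of activated eggs was not tested.

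**Figure D4:**
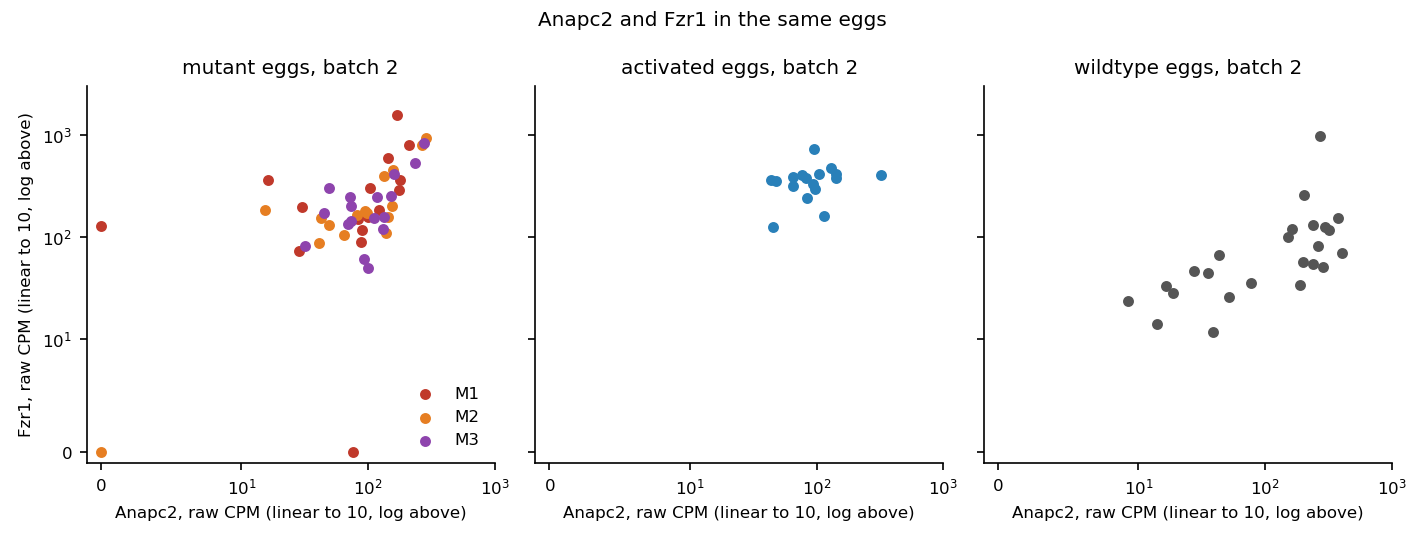
Raw CPM of Fzr1 against Anapc2 in the same eggs of batch 2 (axes linear to 10, logarithmic above), in mutant, activated and wildtype eggs; a point is 1 egg. The Spearman rank correlation is 0.62 over 49 mutant eggs, 0.43 over 17 activated eggs and 0.75 over 24 wildtype eggs, and the wildtype egg at 972 CPM of Fzr1 stands apart.

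Over the 9 sums, the genes with profiles most like that of Cdc20, by Pearson correlation of log2 CPM among 5865 genes of at least 4 mean log2 CPM, were Lsp1 (0.98), Alkbh2 (0.97) and Mansc1 (0.93). For Fzr1 they were Uvrag (0.97), Tmem38a (0.95) and Cc2d1a (0.95). The sums share eggs' plates and batches, and the best of so many genes will be high with 9 points.

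The wider pathway was described from lists. Of 8 other subunits, 0 were called in mutant against wildtype eggs with edgeR (1 at an unadjusted p under 0.05, and 0 with DESeq2 and with limma voom), and the median log2 fold was 0.12. In activated against wildtype eggs 1 of 8 was called, where 7.33% of all genes were called lower: Anapc11, the RING subunit that partners Anapc2, with 7.85 CPM in the activated sum and 28.8 and 33.99 in wildtype sums. Its log2 fold was -1.90 ± 0.48 (edgeR adjusted p = 0.0133). The mutant sums held 16.0 to 36.6 CPM of Anapc11, a range that includes both wildtype sums.

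Of 10 inhibitors and checkpoint genes, 3 were higher and 0 lower in mutant eggs, where 5.36% of all genes were higher and 4.03% lower, with a median fold of 0.11. They were the checkpoint genes Bub3 (1.30 ± 0.20, edgeR adjusted p = 0.000597), Bub1 (1.02 ± 0.23, edgeR adjusted p = 0.00948) and the kinase Ttk (0.68 ± 0.19, edgeR adjusted p = 0.0289). In activated eggs, where 5.66% of all genes were higher and 7.33% lower, 2 were higher, Bub1 (1.41 ± 0.33) and Ttk (1.16 ± 0.27), and 2 were lower, Bub1b, which encodes the checkpoint protein BubR1 (-3.77 ± 0.45), and Fbxo5, the inhibitor Emi1 (-1.91 ± 0.34), all with edgeR adjusted p of at most 0.00843. Bub1b (3.15 ± 0.41) and Fbxo5 (1.71 ± 0.31) were also higher in mutant than in activated eggs (edgeR adjusted p = 0.000485 and 0.00314), where 3.43% of all genes were called higher. Fbxo43, the gene of Emi2, was not among the calls of the 3 comparisons.

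Of 18 substrates, 3 were higher and 0 lower in mutant eggs, against the same 5.36% and 4.03% of all genes, with a median fold of 0.01: the kinase gene Nek2 (1.60 ± 0.23, edgeR adjusted p = 0.000267), the kinesin gene Kif22 (1.27 ± 0.29, edgeR adjusted p = 0.0109) and the replication licensing gene Cdc6 (0.91 ± 0.25, edgeR adjusted p = 0.0281). Kif22 had wildtype sums of 9.03 and 48.1 CPM, far apart between batches. In activated eggs Nek2 alone was called (1.47 ± 0.31, edgeR adjusted p = 0.00426), 1 of 18 where 5.66% of all genes were called higher. Ccnb3, a cyclin B gene, was higher in mutant than in activated eggs at the edge of the threshold (1.52 ± 0.43, edgeR adjusted p = 0.0496). It was 1 of 18, where 3.43% of all genes were called higher. Of 8 genes of ubiquitin supply and priming, Ube2d3 alone was called, lower in mutant eggs (-0.56 ± 0.16, edgeR adjusted p = 0.0345), where 4.03% of all genes were lower. The median fold of the list was -0.56. In activated eggs 0 of them were called with edgeR, 0 at an unadjusted p under 0.05, and 0 with DESeq2 or limma voom.

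The markers used to check the cell type also differed. The oocyte markers higher in mutant than in wildtype eggs were Nlrp5, of the maternal subcortical complex (0.89 ± 0.25), and the growth factor Bmp15 (0.66 ± 0.20). Those lower were Zar1, which binds maternal RNA (-1.27 ± 0.16), the growth factor Gdf9 (-1.19 ± 0.15), Padi6 (-0.95 ± 0.19), Dppa3 (-0.77 ± 0.18) and the zona pellucida gene Zp1 (-0.70 ± 0.20), all 7 with edgeR adjusted p of at most 0.044. In activated against wildtype eggs the lowest p values belonged to Zar1 (-3.60 ± 0.31), Gdf9 (-2.54 ± 0.29) and Zp3 (-2.99 ± 0.40), and Padi6 and Zp1 were lower too. The same 5 genes were higher in mutant than in activated eggs, led by Zar1 (2.32 ± 0.27), Zp3 (2.86 ± 0.38) and Gdf9 (1.34 ± 0.25), a comparison that shares its activated sum with the one before. In M3 against M1 eggs 3 were lower, Padi6, Zp2 and Zp1, where 0.152% of all genes were called. Serpine2, the granulosa marker with most of the counts of its list, was lower in activated than in wildtype eggs (-2.01 ± 0.32, edgeR adjusted p = 0.000512) and higher in mutant than in activated eggs (1.57 ± 0.30, edgeR adjusted p = 0.00422), and its part in the calls of the 10 genes was not tested.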

How the data were processed

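The authors deposited raw counts, 1 whole number per gene symbol for each of 107 eggs. STAR and HTSeq are the tools and GRCm38 (mm10) the build named per the submitters' processing notes. Their settings, including strand, are not given in the sources used, so genes that overlap on opposite strands are uncertain. Of the symbols 88.9% were found in GENCODE M21, used for positions, lengths and 3′ ends.

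Since eggs could not be assigned to animals, counts were summed per group and batch (5436993 to 36209306 counts per sum). No 2 eggs held identical values. Models of group plus batch were fitted in edgeR 4.0.16 (R 4.3.3), using TMM scaling, its filter at 10 counts and the robust quasi-likelihood F test, with Benjamini-Hochberg adjustment over 13832 genes, a threshold of 0.05 and 3 residual degrees of freedom. The mutant fold was the mean of M1, M2 and M3. The p-values measure only how differently groups shifted between batches, which may be technical. Mutant groups were on the same plates and perhaps from the same animals, and the activated sum was assumed to vary like the others. The standard error is the log2 fold over the root of F. On simulated data 60% of 2-fold and 100% of 4-fold changes were recovered in mutant against wildtype, 17% and 81% in activated against wildtype, and 26% and 95% in mutant against activated. Each percentage is of 100 changed genes. Among genes left unchanged 16, 14 and 22 were called in these 3 comparisons, in that order. In each, false calls were a larger share of all calls than the threshold of 0.05. The changed genes all had a mean log2 CPM over 4, so recovery of lower genes was not simulated. Each sum was drawn independently at the fitted dispersion, with no plate effect.

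The 10 genes, the lists and the tests were chosen with earlier results of these data known. All 10 genes are named, and of each list the called members, up to 3 by p, or all of them where they went in both directions. Alternatives were other scalings, no filter, DESeq2 1.42.0, limma 3.58.1 voom, thinning, sums per plate, pooled mutant eggs, no batch term and leaving out eggs or sums. Wildtype egg 45 and M2 egg 14 were left out after the data were seen.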

Additional observations from a re-analysis of the deposited data

Results flagged for a closer look

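Among groups of 4 or 5 eggs in batch 1, 1 of 20 sets of values had an egg far from the others. M1 egg 9 held 230.8 raw CPM of Cdc16, and its gap to the next M1 egg took up 0.924 of the range, above the limit of 0.829 for 4 values. Chance gives about 1 such flag in 20 sets. No explanation was tested.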

How the results depend on the processing

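No paired analysis was possible because egg numbers in the labels name eggs within a group and are lost in the sums. That limit concerns egg numbers only. M1, M2 and M3 shared plates, and a comparison of these groups with plate as a block was not run. Of 10 genes, 2 were called in mutant against wildtype eggs. This became 4 with thinned eggs, 1 without the concentrated wildtype eggs, 1 with sums per plate, 0 with no batch term, and 1 to 3 with a sum left out. In activated against wildtype eggs 1 was called, and 4 with no filter, with DESeq2, with limma voom and with pooled mutant eggs, 3 with thinned eggs or without wildtype egg 45, 2 with upper quartile scaling, 0 with sums per plate and with no batch term, and 1 to 4 with a sum left out. In mutant against activated eggs 1 was called, 0 with no batch term, and 0 to 1 with a sum left out. For the change with batch, 0 were called, 2 with no filter, 1 with DESeq2, 1 without the concentrated eggs, and 0 to 1 with a sum left out. M2 egg 14 of batch 2 had 8 of the 10 genes at 0 (up to 8.16 CPM each), and leaving it out changed no call.

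Folds that changed sign were all uncalled. Ube2s in mutant against wildtype eggs was -0.02 with RLE scaling, -0.0207 with DESeq2, -0.0027 with voom, -0.0493 without the concentrated eggs, -0.0437 without egg 45, and -0.111 to 0.1756 with a sum left out. Cdc27 was -0.0098 with thinned eggs, and in activated eggs 0.0002 with upper quartile scaling. Cdc16 in activated eggs was -0.1065 with no batch term. In mutant against activated eggs upper quartile scaling gave Anapc1 -0.0325, Anapc2 -0.0542 and Ube2c -0.077, and Anapc1 was -0.1588 with thinned eggs and -0.0369 to 0.2321 with a sum left out. Ube2c there was -0.1376 with voom, -0.066 with sums per plate, -0.2596 with no batch term, -0.0964 without egg 45, and -0.1919 to 0.5283 with a sum left out. Its change with batch was 0.0094 with thinned eggs. As means over eggs of log2 raw CPM, with no test, Cdc16 was 0.1326 and Cdc23 0.0338 in mutant against wildtype eggs, Cdc27 0.138 in activated against wildtype eggs, and Anapc1 -0.2266, Anapc2 -0.2319 and Ube2c -0.7088 in mutant against activated eggs. Within batch 1 Ube2s was -0.0942 in mutant against wildtype eggs, and within batch 2 Ube2c was -0.2263 in mutant against activated eggs. The causes were not tested. Upper quartile scaling moved the median fold of all genes in mutant against activated eggs to -0.20, against -0.05 with TMM, and in activated against wildtype eggs to 0.30, against 0.15.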
